A study of Mus musculus with 12 samples.

Results

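Eos- Tregs were compared with conventional CD4 T cells (Tconv) from mouse thymus in 8 of the 12 RNA-seq libraries of a study of thymic regulatory T cells. The members were taken from the library labels, as the 4 libraries labelled Eos- Treg and the 4 labelled Tconv, each Eos- Treg library being paired with the Tconv library of the same Eos number. Of the 55450 genes in the table, 15361 held enough counts to be tested. Per the labels' protocols, all 3 populations of the study came from the thymus of mice carrying both CD4-Cre and Foxp3-GFP, so that the Tconv controls carry both alleles too. Eos- Tregs were sorted as CD4+ cells positive for Foxp3 and negative for Ccr6 and Cxcr4, and Tconv as CD4+ cells negative for Foxp3. The third population, Eos+ Tregs (4 libraries), was sorted as Foxp3+ cells with both receptors and is used below to place the levels of single genes and lists. In CD4-Cre mice the Cd4 promoter drives the recombinase, so any recombination would start in thymocytes before the Treg and Tconv lineages part, and the labels name no floxed allele for these samples. The labels list Eos+ and Eos- under genotype, while the protocol describes fractions sorted from 1 kind of mouse. Age and sex of the mice, and whether replicates came from separate animals, are not given in the sources used here, so the p-values measure no more than how far these libraries vary, and part of that variation may be technical.

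Tregs are CD4 T cells that restrain other lymphocytes and depend on the transcription factor Foxp3. In the thymus, young Tregs arise from CD4 thymocytes that receive strong T cell receptor signals followed by IL-2, which acts through the receptor chain Il2ra and the transcription factor STAT5. They then share the organ with older Tregs that have come back from the periphery, and the chemokine receptor Ccr6 is a known mark of such recirculating cells. Tregs can also hold latent TGF-beta on their surface through GARP, encoded by Lrrc32, and release it through the integrin chain Itgb8. S1pr1, the receptor for the egress signal sphingosine-1-phosphate, and its activator Klf2 are known to rise as thymocytes mature and become able to leave.

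Levels are CPM (counts scaled to a common library size, after TMM factors), given in the order of replicates 1 to 4, or as mean ± SD (n = 4). Fold changes are log2 values of Eos- Treg minus Tconv from edgeR's quasi-likelihood fit with the Eos number as a block, with a Benjamini-Hochberg adjusted p. The standard error (SE) is the one implied by the F test, the absolute log2 fold change over the square root of F. "Rose", "fell" and "changed" refer to an adjusted p under 0.05 in that fit. Counts of list members are to be read beside the shares over all tested genes, of which 11.3% rose and 10.2% fell. Depth was 23943689 to 35553470 expected counts in Eos- Treg and 27579395 to 37902528 in Tconv. Eos- Treg replicate 1 stood apart from its group. On the first principal component of the 8 libraries (36.7% of the variance) it lay at -1.20, between the other Eos- Treg libraries (53.4 to 78.3) and Tconv (-65.5 to -43.8). Libraries numbered 1 also held most of the red cell and granulocyte transcripts, with summed levels of 476 CPM in Eos- Treg and 391 CPM in Tconv, against at most 18.9 CPM in the other 6 libraries. In bulk samples of this kind, fewer cells of a type and less RNA per cell cannot be told apart.

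The genes of the sort checked the labels and are given without a test. Foxp3 (ENSMUSG00000039521.13, chromosome X, 7573644 to 7595245 of mm10) stood at 53.3, 653, 862 and 760.1 CPM in Eos- Treg and at 0.687, 3.19, 3.42 and 0.841 CPM in Tconv. Every Eos- Treg library was thus above every Tconv library, but replicate 1 held far less Foxp3 than the others, and Eos+ Treg replicate 1 was low as well, at 55.0 CPM. Ccr6, the receptor for Ccl20, was 14.4 ± 3.92 CPM in Eos- Treg and 3.27 ± 1.49 in Tconv, against 246 ± 14.98 in Eos+ Treg. Cxcr4, the receptor for Cxcl12, did not separate the groups in this way. It stood at 22.7, 23.2, 42.3 and 26.8 CPM in Eos- Treg, 20.01, 7.27, 20.5 and 12.8 in Tconv and 39.1 ± 11.3 in Eos+ Treg, so that cells sorted as Cxcr4- carried more of its transcript than Tconv. Ikzf4, which encodes Eos, was not a sort gene. It was 171 ± 12.7 CPM in Eos- Treg, 25.3 ± 2.22 in Tconv and 314 ± 17.5 in Eos+ Treg, and the libraries labelled Eos- were therefore not free of Eos transcript.

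In all, 1736 genes rose in Eos- Treg (11.3% of those tested) and 1564 fell (10.2%), of which 597 and 444 changed more than 2-fold. The groups of 4 libraries did not overlap in CPM for 3093 genes (20.1% of those tested), and 3208 of the 3300 changed genes moved the same way in all 4 pairs. Without the replicate block 1345 genes rose and 904 fell. The number that fell was 1024 without Eos- Treg replicate 2, 932 without replicate 3, 909 without replicate 4, 898 without Tconv replicate 2 and 988 without Tconv replicate 4. With Eos- Treg replicate 4 or Tconv replicate 2 left out, 2183 and 2178 genes changed in all. The 12 largest changes in each direction were ranked among changed genes without overlap, with a mean of 10 CPM or more in the higher group. Predicted genes, T cell receptor and immunoglobulin segments, mitochondrial genes, Xist and Y genes were left out of the ranking. Of the 5 markers, Foxp3, Lrrc32 and Itgb8 were among the 12 largest increases, while Cish (log2 fold change 2.83) and S1pr1 (1.16) were not. The rest of the 12 were Il2ra, Ctla4, Ntn4, Syp, Rln3, Nrp2, Tmem121b, Flicr and Cd83. The 12 largest decreases were mostly genes of natural killer receptors and innate-like T cells, described further down.

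**Figure D1:**
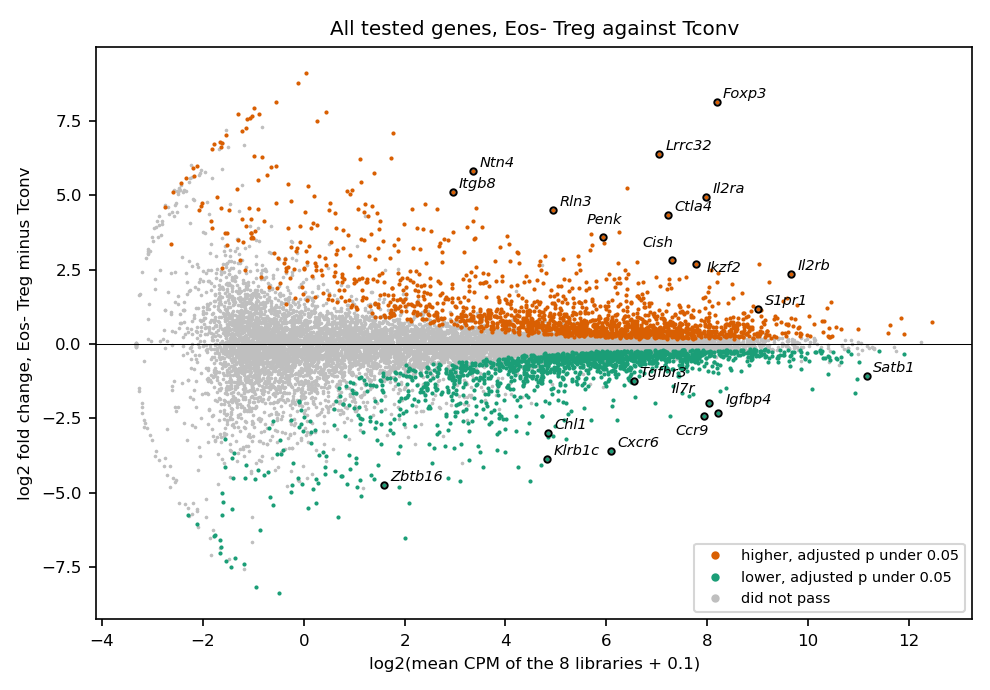
Log2 fold change between Eos- Treg and Tconv (vertical axis) against the log2 mean level of the 8 libraries (horizontal axis, CPM with 0.1 added), 1 point per tested gene, orange for genes that rose, green for genes that fell and grey for genes that did not pass. Lrrc32, Il2ra and Ctla4 lie far above 0 at mid to high levels, S1pr1 lies between 1 and 2 at a higher level, and Cxcr6, Klrb1c and Zbtb16 lie below -3.

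Nearly all genes of the Treg identity list were higher in Eos- Tregs. Of 26 members 25 rose and none fell, against 11.3% and 10.2% of all tested genes. The groups did not overlap for 25, against 20.1% of all tested genes. The list median log2 fold change was 2.696, against -0.02 over all tested genes. The list was chosen with earlier results of these data known and holds the markers Foxp3, Lrrc32, Itgb8 and Cish. Its count describes the list and is no test of a programme. Foxp3, a gene of the sort, is counted among the 25. The count was 25 in every alternative setting run, including without Eos- Treg replicate 1. Lrrc32 (ENSMUSG00000090958.2, chromosome 7, 98489283 to 98502181 of mm10), the docking receptor for latent TGF-beta, was 218, 171, 299 and 358 CPM in Eos- Treg and 2.19, 3.09, 3.26 and 3.94 CPM in Tconv. The gap was wide in each pair, also in replicate 1, where Foxp3 was low (log2 fold change 6.37, SE 0.15, edgeR adjusted p = 1.19e-08). Il2ra, the high-affinity chain of the IL-2 receptor, stood at 496, 355, 553 and 554 CPM and, in Tconv, at 30.04, 9.62, 9.26 and 18.2 CPM. All 4 Eos- Treg libraries were alike in it and far above Tconv (log2 fold change 4.94, SE 0.28, edgeR adjusted p = 2.18e-06).

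Ctla4, an inhibitory receptor that removes CD80 and CD86 from antigen-presenting cells, was 261, 197.96, 333 and 350 CPM against 17.6, 8.98, 12.6 and 17.9 CPM in Tconv, again without overlap (log2 fold change 4.33, SE 0.13, edgeR adjusted p = 4.65e-08). Ikzf2, which encodes Helios, a factor of the same family as Eos, was 262, 406, 458 and 398 CPM against 43.2, 72.3, 58.6 and 61.6 CPM. The lowest Eos- Treg library was replicate 1, still above every Tconv library (log2 fold change 2.69, SE 0.11, edgeR adjusted p = 2.42e-07). The receptors of the TNF family that mark Tregs followed the same pattern at high levels. Tnfrsf18, which encodes GITR, was 974 ± 199.4 CPM against 229 ± 50.3, and Tnfrsf4, which encodes OX40, 908 ± 145 CPM against 141 ± 33.1. Tnfrsf9, which encodes 4-1BB, rose by a log2 fold change of 1.93 and Tnfrsf1b, TNF receptor 2, by 1.39. Both were lower in Eos- Treg replicate 1 than in replicates 2 to 4, at 275 and 306 CPM.

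Other identity genes with large increases were the orphan receptor gene Gpr83 (log2 fold change 2.397), the semaphorin receptor gene Nrp1 (2.71), the ectonucleotidase gene Nt5e (2.21), which makes adenosine, and the phosphatase gene Dusp4 (3.33), a brake on MAP kinases. Cd83, a surface protein of activated lymphocytes, rose by 3.76, Ecm1, a secreted matrix protein, by 2.49, and Rgs16, a regulator of G protein signalling, by 2.69. The increases of Swap70 (1.90), Capg, an actin-capping protein (1.24), Izumo1r, the folate receptor 4 (1.20), and Nrn1, neuritin (1.88), were smaller. Plagl1, a zinc finger factor, rose from 0.704 ± 0.798 to 9.36 ± 3.36 CPM, with a log2 fold change of 3.85 that came to 4.80 without Tconv replicate 3. The remaining member was Itgae, the integrin chain that pairs with Itgb7 and binds E-cadherin. It stood at 42.2, 11.7, 34.3 and 33.7 CPM in Eos- Treg and at 11.9, 21.4, 26.4 and 51.4 CPM in Tconv, in overlapping ranges, and did not pass the test (log2 fold change 0.17, edgeR adjusted p = 0.813).

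Within the Treg identity list, Eos- Tregs often stood between Tconv and Eos+ Tregs. In the same fit, 3498 genes (22.8% of those tested) differed between Eos+ and Eos- Tregs, and of the 26 identity genes 19 were higher in Eos+ Tregs, 1 was higher in Eos- Tregs and 6 did not pass. This comparison shares the Eos- Treg libraries with the main one. Itgae was 317 ± 74.4 CPM in Eos+ Tregs, and the step from Eos- to Eos+ Tregs had a log2 fold change of 3.44 (edgeR adjusted p = 2.92e-04). Nrp1 was lowest in Tconv (20.3 ± 5.95 CPM), higher in Eos- Tregs (131 ± 19.9) and highest in Eos+ Tregs (657 ± 55.3). The gene that was higher in Eos- Tregs was Gpr83, at 499.7 ± 109 CPM against 207 ± 85.1 in Eos+ Tregs (log2 fold change of Eos+ minus Eos- -1.28, edgeR adjusted p = 0.00861). Foxp3, Il2ra, Tnfrsf9, Izumo1r, Nrn1 and Plagl1 did not pass between the 2 Treg populations.

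**Figure D2:**
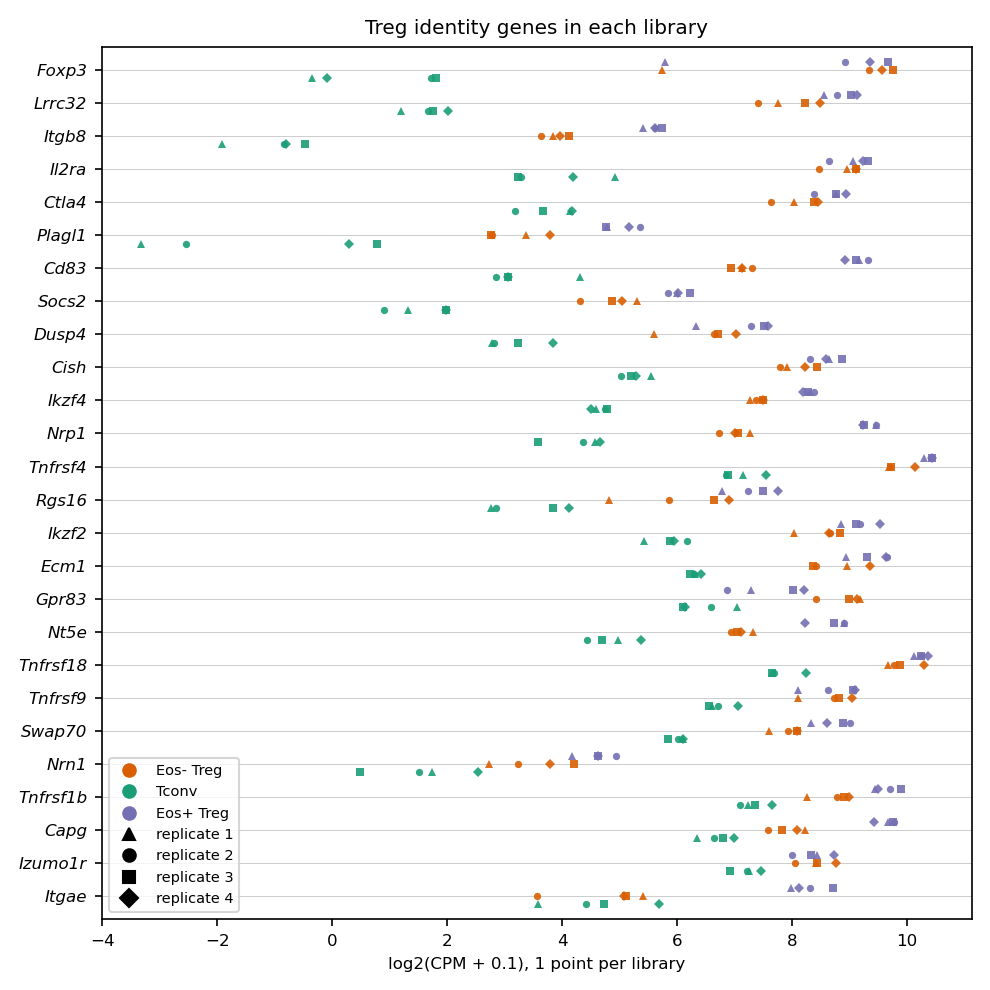
Levels of the 26 Treg identity genes in each library, as log2(CPM + 0.1) on the horizontal axis, with 1 point per library, colour for the group and shape for the replicate number. For 25 genes all Eos- Treg points lie to the right of all Tconv points, while those of Itgae overlap, and for most genes the Eos+ Treg points lie further right.

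The TGF-beta list was led by the genes that display and activate the latent cytokine, while the cytokine itself did not pass. Of 21 members 10 rose, 5 fell and 6 did not pass, with a median log2 fold change of 0.24. Itgb8 (ENSMUSG00000025321.14, chromosome 12, 119158022 to 119238802 of mm10), the integrin chain that frees active TGF-beta from its latent complex, was 14.2, 12.4, 17.4 and 15.5 CPM in Eos- Treg and 0.163, 0.461, 0.622 and 0.473 CPM in Tconv. Every Tconv library was thus under 1 CPM and the Eos- Treg libraries were evenly above it (log2 fold change 5.11, SE 0.23, edgeR adjusted p = 3.50e-07). Itgav, the alpha chain that pairs with Itgb8, was 25.1, 25.3, 29.9 and 29.9 CPM against 15.9, 16.5, 18.6 and 14.4 CPM, a smaller step without overlap (log2 fold change 0.75, SE 0.14, edgeR adjusted p = 0.00459). Ltbp1, which tethers latent TGF-beta to the matrix, was rare in Eos- Treg, at 0.914, 0.655, 4.49 and 2.76 CPM, and held 1 count in all of Tconv (replicate 3) against 271 in Eos- Treg. The ratio of the summed counts per depth was 284 with an exact 95% interval of 50.6 to 11300, which covers counting error only.

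Tgfb1, the cytokine, stood at 118, 152, 142 and 151 CPM in Eos- Treg and 118, 119.8, 131 and 115 CPM in Tconv. The log2 fold change of 0.22 did not pass (edgeR adjusted p = 0.125), with a small excess in each pair. Its receptors moved in different directions. Tgfbr1, the type I signalling receptor, was 130.3 ± 38.5 CPM against 48.7 ± 6.09 in Tconv (log2 fold change 1.37, SE 0.15, edgeR adjusted p = 1.44e-04). Tgfbr3, the co-receptor betaglycan, was 52.6, 56.9, 68.8 and 45.2 CPM against 124, 118, 148 and 129.6 CPM, lower in every Eos- Treg library than in any Tconv library (log2 fold change -1.24, SE 0.14, edgeR adjusted p = 1.68e-04). Eng, endoglin, the other co-receptor, fell from 12.2 ± 4.89 to 2.25 ± 1.81 CPM (log2 fold change -2.88), and Tgfbr2, the type II receptor, fell slightly (-0.23).

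Among signal transducers and brakes, Smad7, an inhibitor that TGF-beta induces, was 66.4, 112, 127 and 129 CPM against 39.3, 49.4, 77.0 and 58.3 CPM, higher in each pair although the groups overlapped (log2 fold change 0.95, SE 0.09, edgeR adjusted p = 6.96e-05). The corepressors Ski and Skil rose by 0.49 and 0.41, the protease gene Furin, whose product cleaves pro-TGF-beta, by 0.45, and Nrros, which tethers latent TGF-beta in other cells, by 0.24. Smad3, a receptor-activated transducer, fell by 0.49 on the log2 scale and Smurf2, a ubiquitin ligase, by 0.47. The transducers Smad2 (0.08) and Smad4 (0.12), the ligase Smurf1 (0.21), the receptor gene Acvr1 (0.90) and Ltbp3, which was at or under 0.415 CPM in all 8 libraries, did not pass. The smaller changes rest on few libraries. In the fit without the replicate block, Furin, Nrros, Tgfbr2, Smad3, Ski and Skil did not pass (edgeR adjusted p = 0.0593 to 0.197), and 6 members rose and 3 fell. With Eos- Treg replicate 1 or Tconv replicate 1 left out 3 fell, and with Eos- Treg replicate 3 or Tconv replicate 2 left out 2 fell. Smad3 also failed when any library but Eos- Treg replicate 2 was left out (highest adjusted p 0.152 over the libraries and Eos numbers left out), Tgfbr2 without Eos- Treg replicate 1, 2 or 3 or Tconv replicate 1 or 2 (0.133), Furin without replicate 2 or 4 of either group (0.0933), Smurf2 without Eos- Treg replicate 3 or Tconv replicate 2 (0.0787) and Nrros without Eos- Treg replicate 4 (0.0777). Smurf1 passed without Tconv replicate 1, at 0.33. Without Tconv replicate 3 all Tconv libraries are at 0 for Ltbp1, and no fold is given.

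In the IL-2 receptor and STAT5 list 12 of 20 members rose and 6 did not pass, with a median log2 fold change of 0.57. The 2 that fell were near the share over all tested genes (10.2%). Receptor chains come first. Beside Il2ra, Il2rb, the signalling chain shared with IL-15, was 1378, 981, 1457 and 1602 CPM in Eos- Treg and 271, 186, 242 and 363 CPM in Tconv, without overlap (log2 fold change 2.36, SE 0.10, edgeR adjusted p = 1.98e-07). Il2rg, the common gamma chain, was 2019 ± 210.3 CPM against 2303 ± 93.2 in Tconv and did not pass (log2 fold change -0.20, edgeR adjusted p = 0.0547), although it did with limma-voom (0.0274), DESeq2 (0.0165), upper quartile or total count scaling, or without replicate 1 of either group. Il7r, the receptor for IL-7, fell. It was 234, 76.7, 59.7 and 96.4 CPM in Eos- Treg and 444, 398, 289.7 and 500 CPM in Tconv (log2 fold change -1.99, SE 0.23, edgeR adjusted p = 1.80e-04). Eos- Treg replicate 1 was the nearest to Tconv here, and Eos+ Tregs held 311 ± 112 CPM. The cytokine gene Il2 itself was under 1 CPM in all 8 libraries, with 0.288 ± 0.335 against 0.386 ± 0.161 CPM, and did not pass.

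Among the transducers, Stat5a rose from 139 ± 9.64 to 386 ± 72.4 CPM (log2 fold change 1.45), Stat5b by 0.50 and Jak3, the kinase bound to the gamma chain, by 0.64, while Jak1 (0.13) did not pass. The genes of feedback inhibitors that STAT5 is known to induce rose as well. Cish (ENSMUSG00000032578.7, chromosome 9, 107296026 to 107302784 of mm10), which blocks the receptor, was 241, 221, 347 and 299 CPM in Eos- Treg and 46.6, 32.3, 36.7 and 39.0 CPM in Tconv. Each pair differed several-fold and the groups did not overlap (log2 fold change 2.83, SE 0.12, edgeR adjusted p = 2.34e-07). Socs2 was 39.4, 19.8, 29.1 and 32.8 CPM against 2.39, 1.77, 3.85 and 3.86 CPM, with the highest Eos- Treg value in replicate 1 (log2 fold change 3.35, SE 0.20, edgeR adjusted p = 2.83e-06). Socs1 and Socs3 rose by 0.68 and 0.98. Pim1, a survival kinase, rose by 1.64, Il15ra by 0.99 and the survival gene Mcl1 by 0.42, whereas Pim2 fell by 0.43 on the log2 scale. Bcl2 (0.33, edgeR adjusted p = 0.0579), Crlf2 (-0.01) and Ptpn2 (-0.17) did not pass, although Bcl2 passed without replicate 2 of either group (0.48 without Tconv replicate 2). In the unblocked fit Socs3, Mcl1 and Pim2 did not pass (adjusted p = 0.0943, 0.201 and 0.0677). Pim2 failed, leaving 1 member that fell, also without any of Eos- Treg replicates 2 to 4 or Tconv replicates 3 and 4 (highest adjusted p 0.191), and Stat5b without Eos- Treg replicate 3 or 4 or Tconv replicate 2 or 3 (0.0945).

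The promoters of this list are shown where they hold the core letters of a STAT5 site. The motif searched was TTCNNNGAA, which reads the same on both strands. In RefSeq's promoter table (GRCm38.p6, 250 bases before to 50 after each start) 2725 of 32841 windows of the same length held it (8.30%) and 150 held 2 or more copies (0.457%). Of the 17 genes of the list with a window in the table, 3 held a match. Stat5a, Stat5b, Pim1 and Il15ra have more than 1 window, so this count per gene is not on the scale of the share per window. Cish at chr9:107296409-107296708 (+ strand) had 2 matches, beginning at the start site and 11 bases after it. Socs3 at chr11:117969317-117969616 (- strand) had 1, beginning 154 bases before the start, and Il7r at chr15:9529827-9530126 (- strand) had 1, beginning 142 bases before it. Matches are in capitals below, 5′ to 3′ on the gene's strand.
Cish: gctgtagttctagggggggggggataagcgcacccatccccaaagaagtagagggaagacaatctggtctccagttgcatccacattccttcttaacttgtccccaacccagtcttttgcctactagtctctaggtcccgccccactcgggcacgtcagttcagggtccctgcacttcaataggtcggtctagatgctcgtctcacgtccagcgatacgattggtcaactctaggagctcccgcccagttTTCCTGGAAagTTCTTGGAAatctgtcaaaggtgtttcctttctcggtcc
Socs3: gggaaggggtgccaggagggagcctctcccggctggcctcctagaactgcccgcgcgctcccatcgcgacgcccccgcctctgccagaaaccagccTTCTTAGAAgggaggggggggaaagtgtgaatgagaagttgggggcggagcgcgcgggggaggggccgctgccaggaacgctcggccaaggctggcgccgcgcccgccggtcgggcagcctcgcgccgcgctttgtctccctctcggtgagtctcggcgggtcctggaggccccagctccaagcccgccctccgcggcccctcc
Il7r: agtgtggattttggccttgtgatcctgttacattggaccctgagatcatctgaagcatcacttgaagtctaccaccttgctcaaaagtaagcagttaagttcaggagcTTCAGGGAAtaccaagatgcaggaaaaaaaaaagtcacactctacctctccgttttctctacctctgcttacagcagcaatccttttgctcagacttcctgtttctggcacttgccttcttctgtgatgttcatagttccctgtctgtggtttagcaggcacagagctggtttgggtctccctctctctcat
Cish and Socs3 rose and Il7r fell. A match of letters is a description of the window and not a measured site of binding.

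Of 20 tested TNF receptor and adaptor genes 10 rose and 8 did not pass (median log2 fold change 0.30). The 2 that fell were near the share over all tested genes (10.2%). Tnfrsf4, Tnfrsf18, Tnfrsf9 and Tnfrsf1b, which are identity genes too, are among the 10. Without Eos- Treg replicate 3, 1 fell. Ltbr held too few counts to be tested. Tnfrsf25, death receptor 3, the receptor for TL1A, was 138, 137, 142 and 155 CPM in Eos- Treg and 23.995, 26.7, 35.1 and 27.9 CPM in Tconv, with even levels in all 4 Eos- Treg libraries (log2 fold change 2.34, SE 0.10, edgeR adjusted p = 3.50e-07). In the list of the NF-kB pathway, to which these receptors signal, 13 of 21 members rose and 7 did not pass (median 0.53). Rel, the c-Rel subunit needed for thymic Tregs, was 95.6, 131, 191 and 172 CPM against 42.2, 40.5, 53.4 and 50.9 CPM, lowest in Eos- Treg replicate 1 yet without overlap (log2 fold change 1.61, SE 0.14, edgeR adjusted p = 3.32e-05). The increases of the inhibitors and regulators Bcl3 (1.38), Nfkbiz (1.13), Birc3 (1.09) and of the subunit gene Nfkb2 (1.00) were of similar size.

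Tnfaip3, which encodes the NF-kB inhibitor A20, differed more between Eos numbers than between groups. It was 290.4, 484, 1207 and 1433 CPM in Eos- Treg and 173, 216, 656 and 723 CPM in Tconv, so replicates 3 and 4 were higher than replicates 1 and 2 in both groups, and each pair moved the same way (log2 fold change 0.94, SE 0.10, edgeR adjusted p = 1.23e-04). It did not pass without the replicate block (adjusted p = 0.333).

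Receptors that tune costimulation and genes of the T cell receptor response were raised in part. Of 21 costimulatory and coinhibitory receptors 10 rose, 3 fell and 8 did not pass (median log2 fold change 0.28). Cd200, an inhibitory ligand, was 181, 245, 223 and 205 CPM against 55.1, 59.9, 52.9 and 54.4 CPM in Tconv, without overlap (log2 fold change 1.94, SE 0.08, edgeR adjusted p = 2.17e-07). Pdcd1, which encodes PD-1, rose from 49.4 ± 7.50 to 99.5 ± 18.6 CPM (log2 fold change 1.00) and stood at 296 ± 121 CPM in Eos+ Tregs. Cd86, a ligand of Cd28 and Ctla4, rose by 0.98 and Cd96 by 0.72. Of 22 tested T cell receptor response genes 9 rose, 2 fell (near the 10.2% of all tested genes) and 11 did not pass (median 0.29). Of these, 5 rose and none fell in the fit without the block, and 1 fell with any library but Tconv replicate 4 left out. Spry1, a brake on receptor signalling, was 39.3, 38.7, 55.6 and 53.3 CPM against 6.7998, 6.21, 10.7 and 12.2 CPM (log2 fold change 2.39, SE 0.20, edgeR adjusted p = 2.33e-05), and Nr4a2, an orphan nuclear receptor induced by antigen, rose by 1.09. Myc rose by 0.63.

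S1pr1, Klf2 and Ccr7 rose in Eos- Tregs, and Ccr9, Plxnd1 and Cd24a fell. Of 24 egress, retention and late maturation genes 12 rose, 7 fell and 5 did not pass (median log2 fold change 0.45), with 12 and 7 also without Eos- Treg replicate 1. The sort gene Cxcr4 is among those counted as higher. S1pr1 (ENSMUSG00000045092.8, chromosome 3, 115710433 to 115715072 of mm10) was 647, 703, 765 and 737 CPM in Eos- Treg and 307, 315, 367 and 286 CPM in Tconv. Every Eos- Treg library held more than 2-fold the level of its pair (log2 fold change 1.16, SE 0.10, edgeR adjusted p = 3.14e-05). Eos+ Tregs were at 343 ± 75.2 CPM, below Eos- Tregs (log2 fold change of Eos+ minus Eos- -1.08, edgeR adjusted p = 6.92e-05).

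Klf2, the transcription factor that drives S1pr1, was 403, 438, 628 and 785 CPM against 221, 225, 328 and 302 CPM. Both groups were higher in replicates 3 and 4, and each pair showed the same step (log2 fold change 1.03, SE 0.12, edgeR adjusted p = 2.37e-04). Ccr7, the receptor for lymph node chemokines, rose by 0.66 and Foxo1, which acts upstream of these genes, by 0.65. S1pr4, a related receptor, rose by 0.89, the integrin gene Itgb7 by 0.58, and the surface genes of mature thymocytes H2-Q7 by 1.56, Ly6c1 by 1.10, Ms4a4b by 0.93 and Ms4a6b by 0.88. H2-Q7, Ly6a and Ly6c1 belong to families of near-identical genes, between which the authors' counting could split reads. Of the 24 members 11 were higher in Eos- than in Eos+ Tregs, 3 were lower and 10 did not pass. Of all tested genes 22.8% differed between the 2 Treg populations, counted in either direction.

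Several genes that mark younger cells or guide them within the thymus fell. Ccr9, the receptor for Ccl25, was 191, 87.9, 39.5 and 42.2 CPM in Eos- Treg and 441, 499.5, 243 and 421 CPM in Tconv (log2 fold change -2.42, SE 0.39, edgeR adjusted p = 0.00164). Eos- Treg replicate 1 was again the nearest to Tconv. Plxnd1, a semaphorin receptor that guides thymocytes to the medulla, was 10.3, 8.66, 8.92 and 6.72 CPM against 32.1, 27.6, 39.0 and 22.8 CPM, without overlap (log2 fold change -1.79, SE 0.17, edgeR adjusted p = 6.77e-05). Cd24a, a surface protein lost on maturation, fell from 43.3 ± 5.94 to 22.0 ± 2.93 CPM (log2 fold change -0.98). Ccr4, a receptor that draws young cells to the medulla, fell by 1.89 on the log2 scale, but replicate 1 stood at 20.02 CPM against 4.44 to 5.69 CPM in the other Eos- Treg libraries, and the call was lost without any of Eos- Treg replicates 2 to 4 or Tconv replicate 2 or 4 (highest adjusted p 0.0910). Il7r, given above with the IL-2 list, is a member too and fell (-1.99). The remaining members that fell, Ly6a (-1.02) and Cd52 (-0.49), are known to be high on mature T cells.

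The recombinase genes Rag1 and Rag2 and the template-free polymerase gene Dntt, which fade with time after selection, did not pass. Rag1 was 35.6, 15.6, 0 and 0.0574 CPM in Eos- Treg and 26.0, 44.4, 1.71 and 3.497 CPM in Tconv. It was high in replicates 1 and 2 and low in replicates 3 and 4 of both groups, so that it differed more between Eos numbers than between groups. Rag2 (-0.68) and Dntt (-1.36) had the same split. Cd69, which opposes S1pr1 at the surface, was 262, 330.4, 524 and 509 CPM against 316, 258, 313 and 372 CPM and did not pass (log2 fold change 0.31, edgeR adjusted p = 0.132), though it did without Tconv replicate 1, at 0.50 (0.00262). Tox (0.16) did not pass. Ly6c1 did not pass without the replicate block (adjusted p = 0.0644).

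**Figure D3:**
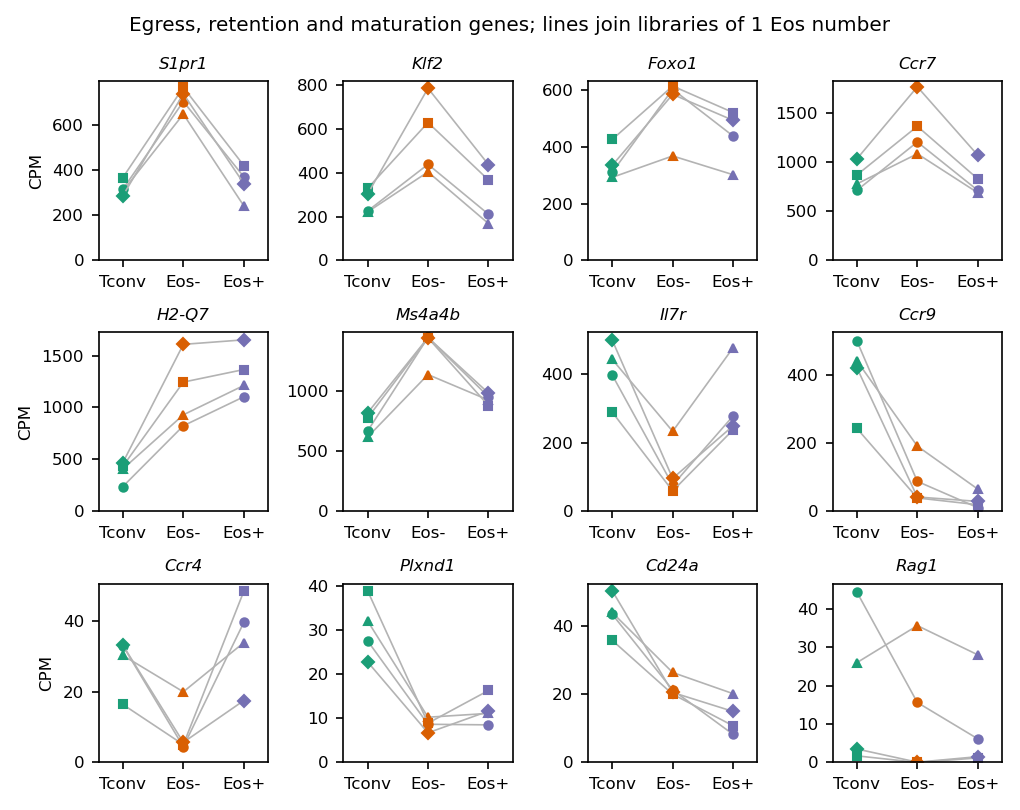
CPM of 12 egress, retention and maturation genes in Tconv, Eos- Treg and Eos+ Treg, with a grey line joining the libraries of each Eos number and shape for the replicate. S1pr1, Klf2, Foxo1, Ccr7 and Ms4a4b peak in Eos- Tregs in every line, Il7r, Ccr9, Plxnd1 and Cd24a drop from Tconv to Eos- Tregs in every line, and Rag1 splits by Eos number.

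Effector Treg genes moved in part. Of 24 members 9 rose, 4 fell and 11 did not pass (median log2 fold change 0.20). Bhlhe40, a transcription factor of activated T cells, was 39.6, 48.0, 69.5 and 117 CPM in Eos- Treg and 9.68, 11.9, 17.4 and 39.0 CPM in Tconv (log2 fold change 1.88, SE 0.18, edgeR adjusted p = 6.40e-05). Il1r2, the decoy receptor for IL-1, was 8.64, 4.59, 1.59 and 10.9 CPM against 1.21, 0.142, 0.528 and 0.841 CPM (log2 fold change 3.14, SE 0.55, edgeR adjusted p = 0.00276). Eos+ Tregs held more of both, with 386 ± 110.4 CPM of Bhlhe40 and 300.3 ± 57.4 CPM of Il1r2 (log2 fold change of Eos+ minus Eos- 2.59 and 5.71, edgeR adjusted p = 1.72e-05 and 2.33e-05). Id2, an inhibitor of E proteins high in effector and innate-like cells, fell, from 272 ± 61.4 to 90.8 ± 33.3 CPM (log2 fold change -1.64, SE 0.17, edgeR adjusted p = 1.22e-04).

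Suppressive mediators rose in 10 of 19 members, fell in 3 and did not pass in 6 (median log2 fold change 0.99). Ctla4 and Nt5e, described above, are among the 10. Penk, which encodes proenkephalin, was 123, 96.1, 77.3 and 157 CPM in Eos- Treg and 12.1, 4.72, 6.43 and 14.6 CPM in Tconv, without overlap (log2 fold change 3.60, SE 0.25, edgeR adjusted p = 6.51e-06), and stood at 693 ± 98.2 CPM in Eos+ Tregs. Gzmb, granzyme B, fell from 38.1 ± 24.1 to 4.89 ± 3.21 CPM (log2 fold change -2.99, and -3.70 without Eos- Treg replicate 1). Fgl2, a secreted fibrinogen-like protein, fell by 2.41 on the log2 scale, with -3.13 without Eos- Treg replicate 1 and -1.78 without Tconv replicate 4, and did not pass without replicate 2 in every group (highest adjusted p 0.0729). The cytokine gene Il10 was at or under 1.04 CPM in all 8 libraries and did not pass.

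The naive T cell programme was split. Of 20 tested transcription factor genes 7 rose and 8 fell (median log2 fold change -0.06). Satb1, a chromatin organiser of the thymus, was 1756, 1468, 1273 and 1372 CPM in Eos- Treg and 3523, 3367, 2526 and 3071 CPM in Tconv, lower in each pair by a similar factor (log2 fold change -1.09, SE 0.11, edgeR adjusted p = 7.75e-05). Eos+ Tregs held 415 ± 90.0 CPM. Runx3, which drives the CD8 and innate fates, fell by 1.48 on the log2 scale, and Tox2 by 2.72, or by 3.39 without Eos- Treg replicate 1. Beside Klf2 and Foxo1, Klf3, a factor of the same family as Klf2, was 353, 367, 403 and 307 CPM against 115, 121, 164 and 97.1 CPM (log2 fold change 1.54, SE 0.10, edgeR adjusted p = 5.92e-06), and Myb rose by 1.62. Of 24 naive surface and signalling genes 4 rose, among them Ccr7 and Ly6c1, and 12 fell (median -0.53). Igfbp4, a secreted binding protein of young T cells, was 148, 103, 88.8 and 61.1 CPM against 398, 516, 689.8 and 361 CPM (log2 fold change -2.30, SE 0.28, edgeR adjusted p = 2.57e-04). Large decreases were also seen in the adhesion gene Chl1 (-2.99), the peptide transporter gene Slc15a1 (-3.61) and the adhesion receptor gene Adgrg3 (-3.08, and -3.69 without Eos- Treg replicate 1).

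Part of the T cell receptor complex and its proximal signalling genes fell by small steps. Of 24 members 3 rose, 10 fell and 11 did not pass (median log2 fold change -0.15). The 3 that rose were near the share over all tested genes (11.3%). Cd4, the coreceptor both groups were sorted on, was 661, 642, 692 and 545 CPM in Eos- Treg and 938, 932, 1079 and 849.7 CPM in Tconv (log2 fold change -0.58, SE 0.06, edgeR adjusted p = 8.09e-05). Cd3g fell by 0.47 on the log2 scale (not past the threshold without replicate 3 in every group, adjusted p = 0.0512), the phosphatase gene Ptpn6 by 0.48 and Themis, needed for selection, by 0.69. Ubash3b, a phosphatase gene that dampens the receptor, rose by 0.51, but not past the threshold without Eos- Treg replicate 2 or 3 or Tconv replicate 3 (highest adjusted p 0.108). Of the 24 genes 2 rose and 6 fell without the replicate block, 6 fell without Eos- Treg replicate 4, and 1 rose without Eos- Treg replicate 2 or 3.

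**Figure D4:**
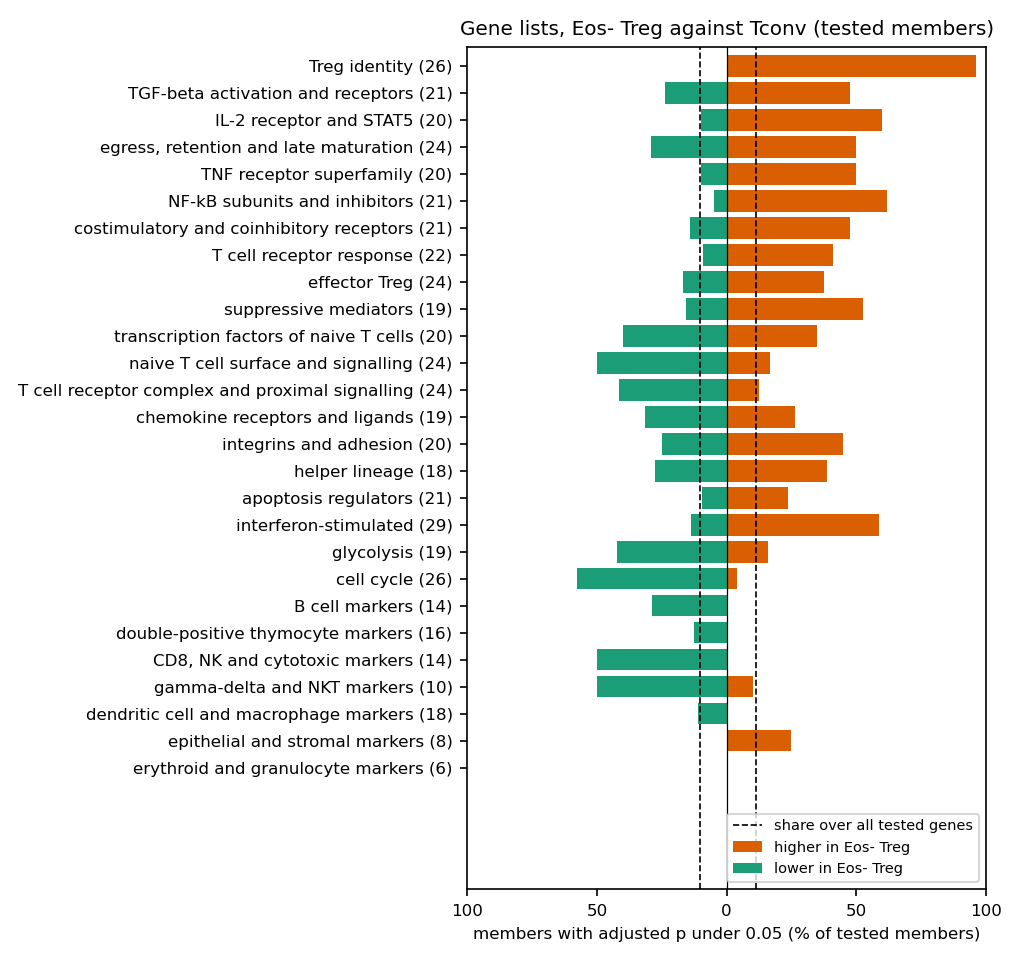
Share of tested members of each of 27 gene lists that rose (orange, right) or fell (green, left) in Eos- Treg, in percent, with the number tested in brackets and dashed lines at the shares over all tested genes (11.3% and 10.2%). Treg identity reaches furthest right, with 25 of 26, and the cell cycle list furthest left, with 15 of 26.

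Several genes of natural killer (NK) receptors and innate-like T cells fell in Eos- Treg. Of 14 tested CD8, NK and cytotoxic markers 7 fell and none rose (1 rose without Tconv replicate 1), and of 10 tested gamma-delta and NKT markers 5 fell and 1 rose. The 1 that rose was near the share over all tested genes (11.3%). In the latter list 2 fell without the replicate block, 3 without Eos- Treg replicate 2 or Tconv replicate 3, 2 without Eos- Treg replicate 3 or 4 or Tconv replicate 4, and 1 without Tconv replicate 2. Klrb1c, which encodes NK1.1, was 12.3, 4.73, 0.795 and 1.177 CPM in Eos- Treg and 50.6, 20.9, 37.5 and 98.4 CPM in Tconv, without overlap (log2 fold change -3.88, SE 0.74, edgeR adjusted p = 0.00431). Klrk1, which encodes NKG2D, was 14.996, 2.31, 0.138 and 1.81 CPM against 41.7, 25.4, 34.8 and 88.1 CPM (log2 fold change -4.08, SE 0.86, edgeR adjusted p = 0.00728). Eos- Treg replicate 1 was the highest of its group and Tconv replicate 4 the highest of its own for both. Zbtb16, which encodes PLZF, the factor of NKT cells, was 0.457, 0.342, 0.104 and 0 CPM against 3.73, 4.86, 4.35 and 9.54 CPM (log2 fold change -4.73, SE 1.12, edgeR adjusted p = 0.0130). The sum of the CD8, NK and cytotoxic list ran from 97.6 to 335 CPM over the Eos- Treg libraries and from 313 to 627 CPM over Tconv, and that of the gamma-delta and NKT list from 354 to 498 CPM and from 342 to 456 CPM. Whether the 2 populations differ in the number of such cells or in RNA per cell was not tested.

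The 12 largest decreases were picked as lower in Eos- Treg, so their direction is no further result. Beside Klrb1c and Klrk1 they held the NK receptor genes Klra9 (log2 fold change -4.59), Klra1 (-4.51), Klrc2 (-3.98) and Klrd1 (-3.89). Reads of multigene families such as the Klra genes are hard to assign. The kinase gene Styk1 (-4.59), Asb2 (-3.63), the adhesion receptor gene Adgrg5 (-3.56) and the chemokine receptor gene Cxcr6 (-3.60) were among the 12 too. Cxcr6 stood at 35.3, 16.1, 2.04 and 2.76 CPM in Eos- Treg and 78.0, 76.0, 84.5 and 249 CPM in Tconv, where replicate 4 was about 3 times the others. These values move with single libraries. Over all libraries and Eos numbers left out, Klra9 ran from -5.46 to -3.77, Klra1 from -5.80 to -3.62, Klrk1 from -4.93 to -3.50, Klrc2 from -5.02 to -3.32, Klrd1 from -5.01 to -3.25, Klrb1c from -4.62 to -2.98, Styk1 from -5.77 to -3.80, Asb2 from -4.69 to -2.59, Adgrg5 from -4.32 to -2.63, Cxcr6 from -4.51 to -2.61 and Zbtb16 from -5.62 to -3.78, all below 0. The steps beyond 1.5-fold came from leaving out Eos- Treg replicate 1 (for example -5.69 for Styk1), Eos- Treg replicate 2 (-5.80 for Klra1), Eos- Treg replicate 3 (-3.28 for Klrd1), Eos- Treg replicate 4 (-3.90 for Klra9), Tconv replicate 1 (-4.74 for Klrk1) and Tconv replicate 4 (-2.65 for Adgrg5). Calls were lost for Klra1 without any of Eos- Treg replicates 3 and 4 or Tconv replicates 2 to 4 (highest adjusted p 0.108), for Klrc2 without Eos- Treg replicate 3 or Tconv replicate 2 (0.0861), for Asb2 without Eos- Treg replicate 3 (0.0608) and for Styk1 and Zbtb16 without Tconv replicate 2 (0.0808 and 0.0651). With all libraries of an Eos number left out, calls were also lost for Klrk1 and Klrd1 (replicate 4, 0.0640 and 0.0723) and for Adgrg5 and Cxcr6 (replicate 3, 0.0517 and 0.0519), as well as for Klra1 and Klrc2 (3 or 4), Asb2 (2 or 3), Styk1 and Zbtb16 (3). Without the replicate block Klra1, Klrk1, Klrc2, Klrd1 and Asb2 did not pass (edgeR adjusted p = 0.0565 to 0.0895), and 3 of the 14 CD8, NK and cytotoxic markers fell. Of the other 2 of the 12, Slc15a1 is given above, and the last was the gene model ENSMUSG00000117748.1, also named Chtf8, which shares exons with the main Chtf8 gene and is uncertain for that reason, at 1.38 ± 0.971 CPM against 21.8 ± 5.73.

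Of 18 tested helper lineage genes 7 rose and 5 fell, the latter being Tbx21, Il12rb2, Ifng, Il4 and Il21. Without the replicate block 7 rose and 1 fell, and 3 fell without any of Eos- Treg replicates 2 to 4 or without Tconv replicate 2. Tbx21, which encodes T-bet, was 11.3, 2.28, 2.73 and 4.02 CPM in Eos- Treg and 23.96, 18.5, 19.0 and 34.5 CPM in Tconv, without overlap although replicate 1 was raised (log2 fold change -2.48, SE 0.36, edgeR adjusted p = 7.99e-04). Il12rb2 fell by 2.35 on the log2 scale (-1.76 without Tconv replicate 2), Ifng by 1.71 and Il21, the follicular helper cytokine, from 7.59 ± 2.92 to 0.760 ± 1.303 CPM. The calls of Ifng were lost without any of Eos- Treg replicates 2 to 4 or Tconv replicates 3 and 4 (highest adjusted p 0.143), that of Il21 without Tconv replicate 2 (0.0668) or with limma-voom (0.0553). Its log2 fold change was -5.97 without Eos- Treg replicate 2, -6.32 without Tconv replicate 1 and -4.55 without Tconv replicate 4, against -5.33 with all libraries. Stat3 rose, from 308 ± 42.7 to 589 ± 85.1 CPM (log2 fold change 0.93). Of 19 tested chemokine receptors and ligands 5 rose, including Ccr7 and the sort genes Ccr6 and Cxcr4, and 6 fell. Cxcr3, the receptor for interferon-induced chemokines, was 36.3, 5.87, 9.47 and 13.9 CPM against 37.2, 25.9, 39.8 and 71.9 CPM, lower in each pair but with replicate 1 of Eos- Treg inside the Tconv range (log2 fold change -1.69, SE 0.33, edgeR adjusted p = 0.00489), and it did not pass without the block (adjusted p = 0.0907).

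Most cell cycle genes fell in Eos- Treg, and their level split the Eos- Treg libraries. Of 26 members 15 fell, 1 rose and 10 did not pass (median log2 fold change -1.36). Mki67, the proliferation marker, was 43.9, 18.9, 2.59 and 5.92 CPM in Eos- Treg and 62.5, 66.5, 49.8 and 31.0 CPM in Tconv. Replicates 3 and 4 of Eos- Treg were far below Tconv, replicate 2 was below it too, and replicate 1 lay inside its range (log2 fold change -1.94, SE 0.59, edgeR adjusted p = 0.0406). Top2a (-2.08), Kif11 (-1.97), Cdk1 (-1.92), Bub1 (-1.996) and Birc5 (-1.76) fell too, all with Eos- Treg replicate 1 inside the Tconv range. The summed level of the list ran from 597 to 1620 CPM in Eos- Treg and from 1268 to 1794 CPM in Tconv. Without the replicate block 2 of the 26 fell, and without Eos- Treg replicate 1, 18 fell. The number that fell was 8, 7 and 5 without Eos- Treg replicates 2, 3 and 4, and 3, 5 and 5 without Tconv replicates 2, 3 and 4. The calls of Mki67, Kif11 and Birc5 were lost without any of replicates 2 to 4 of either group (highest adjusted p 0.152, 0.158 and 0.190), those of Top2a and Cdk1 without most of these (0.119 and 0.130) and that of Bub1 without Tconv replicate 2 (0.0611). Without Eos- Treg replicate 1 the log2 fold changes were -2.56 for Mki67, -2.72 for Top2a and -2.69 for Kif11.

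Interferon-stimulated genes were mostly higher. Of 29 members 17 rose, 4 fell and 8 did not pass (median log2 fold change 0.36), with 11 and 2 without the replicate block or without Eos- Treg replicate 2. The number that fell was 2 without Eos- Treg replicate 1 or Tconv replicate 4 and 1 without Tconv replicate 2. Ifi27l2a was 413, 483, 576 and 802 CPM in Eos- Treg and 207, 204, 299 and 400.3 CPM in Tconv, higher in each pair by a similar factor (log2 fold change 1.04, SE 0.08, edgeR adjusted p = 1.68e-05). Usp18, an inhibitor of interferon receptor signalling, rose by 0.78, Ifit3 by 0.90 and Mx1 by 0.94. Oas2, an antiviral sensor, went the other way, at 29.6, 30.9, 46.5 and 39.3 CPM against 80.8, 72.8, 112 and 92.1 CPM (log2 fold change -1.30, SE 0.15, edgeR adjusted p = 1.79e-04). Mx1 did not pass without the block (adjusted p = 0.0526) or without Eos- Treg replicate 2 or 4 (highest adjusted p 0.0792).

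Integrins and adhesion genes rose in 9 and fell in 5 of 20 tested members. The number that fell was 2 without the replicate block, 3 without Eos- Treg replicate 2 or Tconv replicate 4, 2 without Eos- Treg replicate 3 or Tconv replicate 2, and 1 without Eos- Treg replicate 4. Itga6, the laminin receptor chain, was 127, 129.6, 209 and 192 CPM against 61.4, 72.2, 75.1 and 58.6 CPM (log2 fold change 1.26, SE 0.15, edgeR adjusted p = 2.63e-04), and Itgb3, a chain that pairs with Itgav, was 95.7, 108, 103 and 66.1 CPM against 288, 336, 347 and 261 CPM (log2 fold change -1.73, SE 0.18, edgeR adjusted p = 1.22e-04). Itgb8 and Itgb3, which both pair with Itgav, thus moved in opposite directions. Itgb1, another beta chain of the list, did not pass. Itga1, the collagen receptor chain, fell from 10.6 ± 5.00 to 1.15 ± 1.02 CPM, a log2 fold change of -3.48 that was -2.77 without Eos- Treg replicate 3 and did not pass without replicate 4 of either group (highest adjusted p 0.103) or with DESeq2 (0.0961).

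Glycolysis genes fell in 8 and rose in 3 of 19 members (median log2 fold change -0.14). The number that fell was 5 without the replicate block, without Eos- Treg replicate 2 or 3 or without Tconv replicate 2 or 4, and 4 without Tconv replicate 3. Eno1, enolase, fell from 2466 ± 95.3 to 1665 ± 362 CPM (log2 fold change -0.59) and Pkm, pyruvate kinase, by 0.52 on the log2 scale. The lactate exporter gene Slc16a3 was 14.1, 30.7, 23.1 and 31.6 CPM against 5.75, 5.78, 4.29 and 5.99 CPM and rose (log2 fold change 2.13, SE 0.20, edgeR adjusted p = 5.94e-05), as did the glucose transporter gene Slc2a1 (0.48) and the hypoxia factor gene Hif1a (0.62). Of 21 apoptosis regulators 5 rose, 2 fell and 14 did not pass. The share that fell was near that over all tested genes (10.2%). Without the replicate block 3 rose and 1 fell. The number that fell was also 1 without Eos- Treg replicate 2 or 4 or any of Tconv replicates 2 to 4. Casp8, the initiator caspase, was 359, 368, 393 and 394 CPM against 206, 191, 194 and 178 CPM (log2 fold change 0.98, SE 0.07, edgeR adjusted p = 7.93e-06), Fas rose by 1.07 and the BH3-only gene Pmaip1 by 1.56, while the ligand gene Fasl fell by 2.62 on the log2 scale.

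Several of the largest increases were of genes outside the Treg identity list. Ntn4, which encodes the secreted guidance protein netrin 4, was 18.6, 19.5, 18.7 and 23.3 CPM in Eos- Treg and 0.131, 0.426, 0.311 and 0.710 CPM in Tconv. It was even across the Eos- Treg libraries (log2 fold change 5.80, SE 0.36, edgeR adjusted p = 3.45e-06) and lower in Eos+ Tregs, at 5.33 ± 2.68 CPM (log2 fold change of Eos+ minus Eos- -2.07, edgeR adjusted p = 7.68e-04). Rln3, a peptide hormone of the relaxin family, was 48.0, 57.2, 60.5 and 70.5 CPM against 2.39, 2.63, 1.83 and 3.52 CPM (log2 fold change 4.51, SE 0.16, edgeR adjusted p = 1.24e-07), with 74.6 ± 3.10 CPM in Eos+ Tregs. Syp, the synaptic vesicle protein synaptophysin, was 25.6, 18.4, 20.3 and 16.8 CPM against 1.21, 0.674, 0.590 and 0.868 CPM (log2 fold change 4.59, SE 0.24, edgeR adjusted p = 1.02e-06). All 3 were low in Tconv, at no more than 3.52 CPM. Nrp2, a semaphorin receptor, rose by 4.13 and Tmem121b by 3.94. Flicr, a long noncoding RNA at the Foxp3 locus, rose by 3.80. It shares exon positions with Foxp3 on the same strand, and reads there cannot be told apart between the 2 genes.

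Markers of other cells that a CD4+ gate could hold are given by their counts and summed levels. Of 14 tested B cell markers 4 fell and none rose, with summed levels of 179 to 545 CPM in Eos- Treg and 253 to 460 CPM in Tconv, and none fell without the replicate block. The number that fell was 1 without Eos- Treg replicate 2 or Tconv replicate 4, 2 without Eos- Treg replicate 4 or Tconv replicate 2, and 0 without replicate 3 of either group. Pax5 held too few counts to be tested. Cd79a, a chain of the B cell receptor, was 4.98, 0.513, 1.11 and 1.67 CPM against 16.9, 8.13, 8.92 and 1.74 CPM, and its call was lost without any of replicates 1 to 3 of either group (highest adjusted p 0.139). Of 18 tested dendritic cell and macrophage markers 2 fell, Flt3 and Cd74, a share near that over all tested genes (10.2%). The sums of this list were 95.2 to 707 CPM in Eos- Treg and 208 to 738 CPM in Tconv. None fell without the replicate block, without Eos- Treg replicate 2 or 4 or without Tconv replicate 2, and 1 fell without replicate 3 of either group or Tconv replicate 4. Some markers of this list rose with a library left out, 1 without Eos- Treg replicate 2 and 2 without Eos- Treg replicate 3. Cd74, the invariant chain, was 373, 94.7, 81.5 and 99.9 CPM against 431, 155, 285 and 143 CPM and kept its call only without Eos- Treg replicate 1 among single libraries left out (highest adjusted p 0.171). Of 16 tested double-positive thymocyte markers Mns1 (-0.87) and Themis fell, again near the share over all tested genes. The sums of that list were 532 to 1005 CPM against 660 to 1078 CPM.

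The T cell receptor gamma constant genes Tcrg-C1, Tcrg-C2 and Tcrg-C4, which are near-identical copies, fell by 1.95, 1.98 and 2.23 on the log2 scale. Their Eos- Treg levels were highest in replicate 1, at 16.7, 24.4 and 18.1 CPM, and none kept its call without the replicate block (edgeR adjusted p = 0.217 to 0.374) or without Eos- Treg replicate 3 or 4 or Tconv replicate 2 or 4 (highest adjusted p 0.123 to 0.185). Fcer1g, a signalling chain of innate cells, fell by 2.30 on the log2 scale, or 3.11 without Eos- Treg replicate 1, and lost its call without any of replicates 2 to 4 of either group (highest adjusted p 0.181). Of 8 tested epithelial and stromal markers Epcam (0.87) and Pecam1 (0.38), both known on T cells too, rose, and Pecam1 lost its call without Eos- Treg replicate 3 (highest adjusted p 0.0957). Krt5, Foxn1, Col3a1 and Pdgfra were listed at 0 in all 8 libraries. Krt14, Psmb11 and Ccl21a, also with too few counts to be tested, reached at most 0.196, 0.124 and 0.26 CPM in them. Krt8, Aire, Ccl25, Col1a1, Pdgfrb and Cdh5 were tested and did not pass. None of 6 tested red cell and granulocyte markers passed (2 rose without Tconv replicate 1), and Hbb-bs, a beta globin, was 149 CPM in Eos- Treg replicate 1 and 127 CPM in Tconv replicate 1 against at most 7.09 CPM in the other 6 libraries. The part of these cells in the differences above was not tested.

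**Figure D5:**
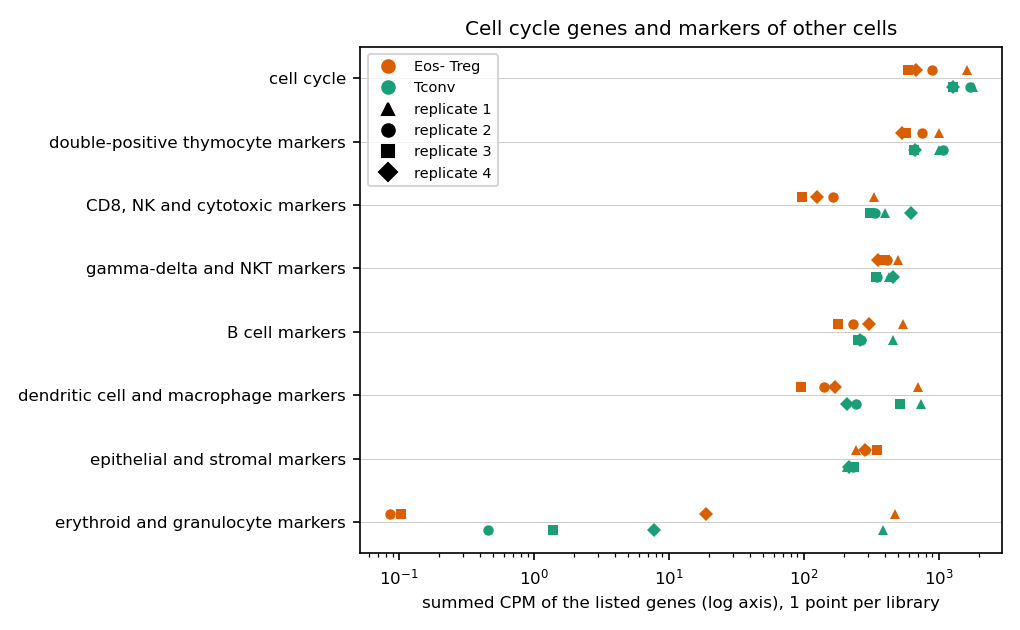
Summed CPM (log axis) of the cell cycle list and of 7 lists of markers of other cells, 1 point per library, orange for Eos- Treg and green for Tconv, with shape for the replicate. Eos- Treg replicate 1 is the highest of its group for 7 of the 8 lists, the exception being epithelial and stromal markers, and the red cell and granulocyte sum is high only in the libraries numbered 1.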

How the data were processed

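Bulk RNA-seq was made from 12 libraries of sorted mouse thymic T cells. Per the labels' protocols, RNA was extracted with TRIzol and a column kit, and 1 ng was amplified by template switching, which does not mark strand, and made into libraries by tagmentation. The authors deposited RSEM expected counts per gene. Per the submitters' processing notes the tools were cutadapt 1.18, STAR 2.7.0f and RSEM 1.3.1 with mm10, and parameters and annotation are not given in the sources used here. The gene identifiers all match those of GENCODE M21, from which positions were taken.

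Expected counts were rounded to whole numbers, filtered with filterByExpr by group and scaled by TMM. edgeR 4.0.16 in R 4.3.3 fitted its quasi-likelihood model to all 12 libraries, with group and Eos number as terms, and Benjamini-Hochberg adjustment ran over the 15361 genes tested. The Eos numbers were taken as pairs, as set for this comparison. Same-numbered Eos- Treg and Tconv libraries deviated together from their group means in every pair (r = 0.31, 0.19, 0.21 and 0.18 across genes). Other pairs ran from -0.20 to 0.02, but taking off the group means pushes them down where the same-numbered pairs are above 0. Alternatives used limma 3.58.1 and DESeq2 1.42.0. The fits were tested on simulated data. Promoter windows are from RefSeq.

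The members and the 27 gene lists were chosen with earlier results of these data known. The genes named are the 5 markers, the sort genes and Ikzf4, the 12 largest changes in each direction among changed, non-overlapping genes with a mean of 10 CPM or more in the higher group, all members of the Treg identity, TGF-beta, IL-2 and egress lists, and up to 5 changed members of each other list with a mean of 5 CPM or more, 176 in all, of which 1 is not reported here. The ranking of the 12 left out predicted genes, T cell receptor and immunoglobulin segments, mitochondrial genes, Xist and Y genes. Flt3, Hbb-bs, Il10, Il4, Itgb1 and the epithelial and stromal markers other than Epcam and Pecam1 were named after their values were seen. Lists share members. Exons of 21 of the 176 genes overlap another gene at 5 CPM or more, among them Foxp3, Flicr, Tnfrsf18, Stat5a, Pim1, Foxo1, Penk and Satb1. Reads there cannot be assigned to 1 gene.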

Additional observations from a re-analysis of the deposited data

Results flagged for a closer look

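Of 350 groups of 4 libraries looked at, 2 for each of the 175 named genes, 29 held a library far from the other 3. The cut-off is designed to mark about 1 in 20 groups by chance, a rate that was not measured here. The library furthest out was Eos- Treg replicate 1 in 18 of the 29. It was high for genes of NK receptors and innate cells, with Klra9 at 9.30 CPM (0.311 to 1.65 in the others), Klrk1 at 14.996 CPM (0.138 to 2.31 in the others), Klrd1 at 6.19 CPM (0.0346 to 0.912 in the others) and Fcer1g at 5.90 CPM (0.207 to 0.919 in the others). It was also high for Tcrg-C4 at 18.1 CPM (1.04 to 3.65 in the others), Tcrg-C2 at 24.4 CPM (1.56 to 3.85 in the others) and Tcrg-C1 at 16.7 CPM (0.948 to 2.62 in the others). Among other genes it was high for Ltbp3 at 0.415 CPM (0 to 0.0691 in the others), Il2 at 0.789 CPM (0.104 to 0.144 in the others), Ccr4 at 20.02 CPM (4.44 to 5.69 in the others) and Id2 at 141 CPM (70.7 to 78.3 in the others). Further high values were Adgrg3 at 20.2 CPM (3.59 to 4.59 in the others), Il21 at 2.7001 CPM (0 to 0.342 in the others) and Cd74 at 373 CPM (81.5 to 99.9 in the others). It was low for genes that were higher in Eos- Treg than in Tconv, namely Foxo1 at 368 CPM (586 to 615 in the others), Ms4a4b at 1131 CPM (1435 to 1438 in the others), Birc3 at 229 CPM (269.7 to 277 in the others) and Hif1a at 244 CPM (276 to 279 in the others).

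Tconv replicate 4 was high for 5 genes, Klra1 at 24.7 CPM (8.64 to 10.3 in the others), Klrc2 at 19.8 CPM (6.6004 to 7.52 in the others), Klrd1 at 36.4 CPM (8.62 to 13.3 in the others), Cxcr6 at 249 CPM (76.0 to 84.5 in the others) and Tnfrsf18 at 304 CPM (202 to 207 in the others). Tconv replicate 3 stood apart for 4 genes, Ltbp1 at 0.0311 CPM (0 in the others), Ltbp3 at 0.404 CPM (0 in the others), Itgb7 at 937 CPM (645 to 671 in the others) and Slc16a3 at 4.29 CPM (5.75 to 5.99 in the others). Tconv replicate 1 stood apart for Cd83 at 19.7 CPM (7.13 to 8.25 in the others). Eos- Treg replicate 4 was high for Tnfrsf4 at 1125 CPM (825 to 849 in the others). The causes were not tested.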

How the results depend on the processing

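None of the 157 named genes that changed reversed its direction under any of 23 alternatives, but 4 that did not pass did so. Of 4021 pairs of a named gene and an alternative, 3680 kept the direction and the side of the threshold, 300 lost the call, 23 gained it and 18 changed sign without passing. With 1 library left out, Itgae (0.17 with all) ran from -0.24 to 0.60, below 0 without replicate 1 of either group, Rag2 from -1.07 to 0.20, above 0 without Tconv replicate 2, and Crlf2 from -0.0554 to 0.065, above 0 without replicate 3 of either group. With replicate 1 left out of every group Itgae was -0.35, with replicate 2 left out Rag2 was 0.0702, and with replicate 3 or 4 left out Crlf2 was 0.0754 and 0.00065. Crlf2 was also 0.000746 with a filter at a mean of 1 CPM. Ltbp3, with few counts, was 0.17 without the replicate block, 0.80 with limma-voom, 0.25 with library weights, 0.10 with DESeq2, 4.48 without replicate 3 in every group and -1.57 to 4.76 with 1 library left out. Of the 157 named genes that changed, 88 kept the call in every alternative, and 110 in every one but the test against a 1.5-fold change. With the pairing dropped (no replicate block) 2249 genes changed, of which 904 fell, and 36 named genes lost the call. In the test against a 1.5-fold change 718 genes passed, 500 higher and 218 lower. With 1 library left out, 2178 to 3136 genes changed, 1274 to 1646 rose and 898 to 1536 fell. With replicate 2 left out of every group 1931 changed and 768 fell, with replicate 3 left out 1870 changed, 1111 rose and 759 fell, and with replicate 4 left out 2003 changed and 752 fell. Limma-voom called 3860 genes, DESeq2 4153, the 8 libraries alone 3093, RLE scaling 3315, upper quartile scaling 3327 and the fit without a filter 3006. Scaling by total counts alone gave 1584 higher and 1806 lower (46.7% higher, against 52.6% with TMM). Fewer libraries in a fit leave it fewer residual degrees of freedom. Depth limits genes under 1 CPM, such as Il2, Il10 and Ltbp3.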
